A study of Homo sapiens with 2 samples.

Results

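The 10 genes described here are the immediate early and AP-1 factors FOS, FOSB, FOSL1, FOSL2, JUN, JUNB, JUND, EGR1, ATF3 and IER3, taken as a list of names, out of 26485 genes in the table. Total RNA was sequenced from SK-LMS-1 and SK-UT-1, established cell lines of human leiomyosarcoma, a malignant tumour with smooth muscle features. Both lines had received only the solvent DMSO, and each was represented by 1 library. All 10 genes were found in the table, and each reached 1 CPM (count per 1000000 counts of its library) in at least 1 library. The study concerns inhibitors of SUV39H2, a histone methyltransferase, and of poly(ADP-ribose) polymerase in uterine leiomyosarcoma, and the comparison made here is between the lines under solvent alone. With 1 library per line no test was possible, so the ratios stand without a p-value or a check over replicates.

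AP-1 is a pair of basic leucine zipper proteins that binds DNA at the TPA response element. A FOS family protein pairs with a JUN family protein, and JUN proteins can also pair with one another. Immediate early genes are switched on without new protein synthesis when growth factors, serum or stress activate MAP kinases and the serum response factor SRF, and the RNA of several of them, FOS above all, disappears again shortly afterwards. FOSL1 and FOSL2 (the proteins FRA1 and FRA2) are later and longer-lived members of the FOS family, and FOSL1 is itself a target of AP-1 and of sustained ERK signalling in tumour cells.

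Counts summed to 6906280 in the SK-LMS-1 library and 7635850 in the SK-UT-1 library, and 1 CPM after scaling corresponded to 6.55 and 8.05 counts. Scaled library sizes came from the trimmed mean of M values (TMM). Each ratio is SK-LMS-1 over SK-UT-1 with its exact 95% interval in parentheses, which covers counting error only. A gene was called different at 2-fold or more. Of 8 smooth muscle markers, 5 reached 1 CPM in SK-LMS-1 and 7 did so in SK-UT-1, and their summed level was 1049 and 519 CPM. CALD1 stood at 749 CPM in SK-LMS-1, against 343 CPM in SK-UT-1, SMTN at 216 and 109 CPM, TAGLN at 61.8 and 5.34 CPM and CNN1 at 9.77 and 2.48 CPM. ACTA2 stood at 10.5 CPM in SK-LMS-1, against 54.0 CPM in SK-UT-1, DES at 0.153 and 3.23 CPM and LMOD1 at 0.610 and 1.24 CPM. MYH11, which defines mature smooth muscle, was below 1 CPM in both, at 0.763 and 0.248 CPM. Of the markers of other cell types, PTPRC of leukocytes and VWF and KDR of endothelium had 0 counts in both libraries. Summed over each list, immune markers held 92.3 CPM in SK-LMS-1, against 14.5 CPM in SK-UT-1, nearly all of it CD68, endothelial markers 1.53 and 0 CPM, epithelial markers 99.7 and 47.6 CPM, led by KRT18 in SK-LMS-1 and by KRT19 in SK-UT-1, and fibroblast markers 215 and 60.4 CPM, led by THY1. Each of these sums was higher in SK-LMS-1, and their part in the results below was not tested.

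Of the 10 genes, 5 were higher by 2-fold or more in SK-LMS-1 (FOSB, FOSL1, JUND, EGR1 and IER3), 1 was so in SK-UT-1 (FOSL2) and 4 differed by less (FOS, JUN, JUNB and ATF3). Over all 14324 measured genes, 21.9% passed this size in favour of SK-LMS-1 and 18.3% in favour of SK-UT-1. A gene counted as measured if its higher library reached 1 CPM, and FOSB passed this limit only through SK-LMS-1, where it was higher. Among the 9 other members, which reached 1 CPM in both libraries, 4 were higher by 2-fold or more in SK-LMS-1 and 1 was so in SK-UT-1, against 15.3% and 13.0% of the 11746 genes that did so. The median log2 ratio was 0.95 over the 10 genes and 0.01 over all measured genes, and 0.61 and -0.02 over those at 1 CPM in both libraries. With library totals or the upper quartile as the scale, 5 members were higher by 2-fold or more in SK-LMS-1 and 2 were so in SK-UT-1, FOS and FOSL2. IER3 alone passed 4-fold, and the ratio of FOSL1 lay just below that size.

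**Figure D1:**
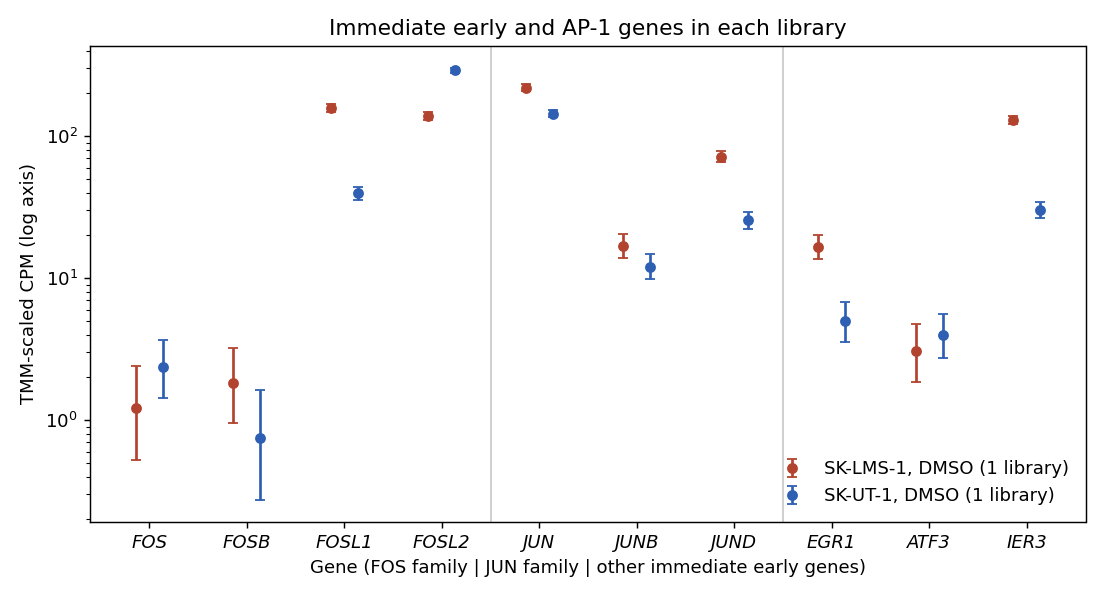
Level of each of the 10 genes in the SK-LMS-1 and SK-UT-1 libraries, in TMM-scaled CPM on a log axis, with exact Poisson 95% intervals of the count as bars. The bars of FOSL1, JUN, JUND, EGR1 and IER3 lay higher in SK-LMS-1 and those of FOSL2 in SK-UT-1. JUN differed by less than 2-fold. The bars of FOS, FOSB, JUNB and ATF3 overlapped between the libraries, although the ratio interval of JUNB excluded 1.

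**Figure D2:**
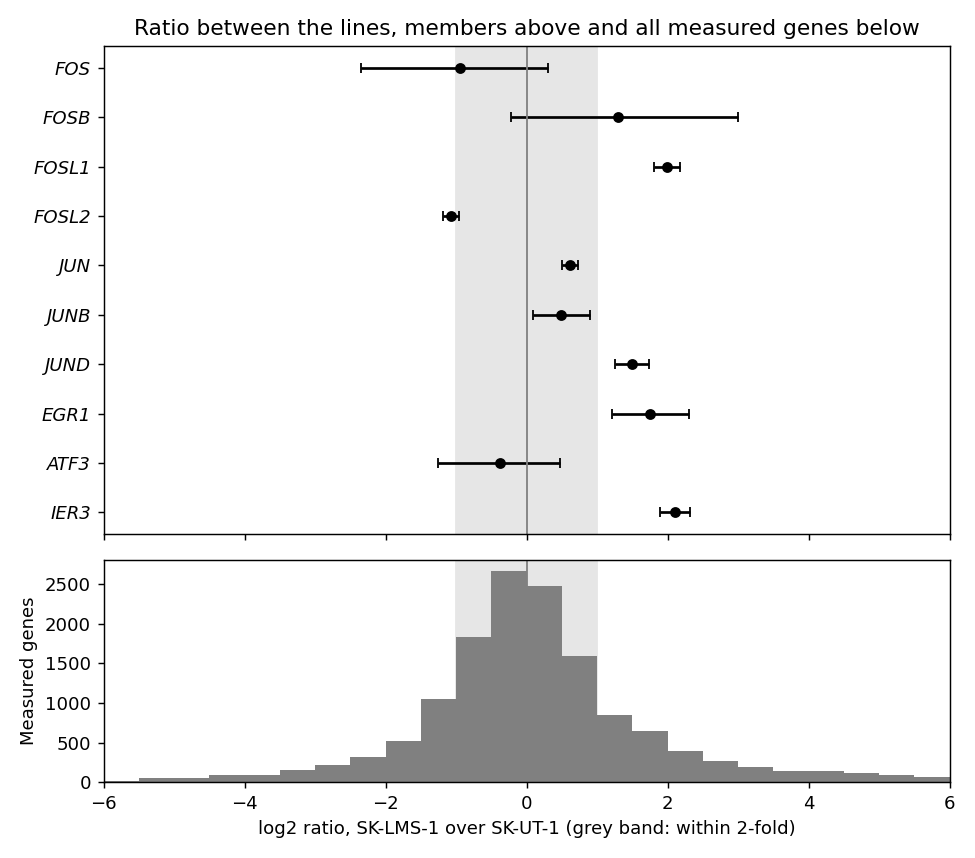
Upper panel, log2 ratio of each gene, SK-LMS-1 over SK-UT-1, with its exact 95% interval. Lower panel, number of the 14324 measured genes in bins of log2 ratio, of which 292 lie beyond 6 in either direction and are not drawn. The grey band marks ratios within 2-fold.

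Promoter windows of 300 bases, from 250 bases before the start site to 50 after it, were available in RefSeq (GRCh38.p14) for 8 of the 10 genes, all but FOSL1 and IER3. The 4 windows below are shown because FOS was near the detection limit in both lines, FOSL2 was higher in SK-UT-1, and JUND and EGR1 were higher in SK-LMS-1. They are chr14:75278578-75278877 on the plus strand for FOS, chr2:28392608-28392907 on the plus strand for FOSL2, chr19:18281573-18281872 on the minus strand for JUND and chr5:138465229-138465528 on the plus strand for EGR1. Each is written 5′ to 3′ of the gene, and capitals mark a TATA box in FOS, a TPA response element in FOSL2, a cAMP response element in JUND, and an EGR1 site followed by a pair of CArG boxes in EGR1.
FOS: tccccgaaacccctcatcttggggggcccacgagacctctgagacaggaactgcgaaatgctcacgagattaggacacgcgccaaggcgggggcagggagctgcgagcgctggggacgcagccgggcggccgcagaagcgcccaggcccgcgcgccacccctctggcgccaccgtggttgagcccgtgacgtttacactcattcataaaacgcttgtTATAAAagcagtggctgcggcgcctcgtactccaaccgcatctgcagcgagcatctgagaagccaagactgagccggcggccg
FOSL2: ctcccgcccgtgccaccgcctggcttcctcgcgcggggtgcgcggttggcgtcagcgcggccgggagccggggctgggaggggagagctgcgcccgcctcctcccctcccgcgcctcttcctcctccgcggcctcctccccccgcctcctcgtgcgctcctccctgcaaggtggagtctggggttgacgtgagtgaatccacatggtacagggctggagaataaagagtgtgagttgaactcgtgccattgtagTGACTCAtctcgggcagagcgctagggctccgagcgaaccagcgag
JUND: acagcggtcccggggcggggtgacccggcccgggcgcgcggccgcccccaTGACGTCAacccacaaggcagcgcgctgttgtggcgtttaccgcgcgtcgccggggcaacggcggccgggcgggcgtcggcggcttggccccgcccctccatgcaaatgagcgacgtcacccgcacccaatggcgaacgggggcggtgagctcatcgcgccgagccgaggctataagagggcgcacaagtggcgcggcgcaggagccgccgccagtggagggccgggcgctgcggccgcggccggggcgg
EGR1: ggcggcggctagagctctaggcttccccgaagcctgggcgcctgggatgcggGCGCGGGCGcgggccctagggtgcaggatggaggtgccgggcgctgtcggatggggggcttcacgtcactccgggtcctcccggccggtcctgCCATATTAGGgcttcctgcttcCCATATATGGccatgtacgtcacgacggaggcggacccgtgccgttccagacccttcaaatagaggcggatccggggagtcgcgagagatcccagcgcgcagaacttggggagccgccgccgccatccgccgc

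Motifs were searched as letters on both strands. The TPA response element (TGANTCA), to which AP-1 binds, occurred in 7.71% of all 35116 windows in the RefSeq table and, among the 8 genes, in that of FOSL2 alone, at bases 5 to 11 after the start site. Variants of the element with other letters or another length were not searched. The letters TGACATCA, a longer variant, stand in the window of JUN and in 1 of the windows of ATF3. The CArG box, to which SRF binds, occurred in 1.29% of windows and among the 8 genes in that of EGR1 alone, at bases -105 to -96 and -83 to -74. Sites more than 250 bases before the start site lay outside the windows, so such elements of FOS or another gene would be missed. The full cAMP response element (TGACGTCA) occurred in 1.85% of windows and in that of JUND, from -200 to -193. Its core (TGACG), added to the search afterwards and contained in the full element, occurred in 24.6% of windows and in 7 of the 8 genes, all but ATF3. G and C made up a median of 64.7% of the member windows, against 58.7% over all windows, and shares were not matched for this. The TATA box (TATAAA) occurred in 11.5% of windows and in those of FOS, FOSB, JUNB and 1 of the windows of ATF3. The EGR1 site (GCGNGGGCG) occurred in 9.43% of windows and in that of EGR1. A match describes letters and not binding, and these windows carry no measurement of binding in these lines.

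The FOS family was carried by FOSL1 and FOSL2 in both lines, and its leading member differed. FOSL1 had 1031 counts in SK-LMS-1, or 157 CPM, and 318 counts in SK-UT-1, or 39.5 CPM. The SK-LMS-1 level was 3.98 times that of SK-UT-1 (3.51 to 4.53). FOSL2 had 910 counts in SK-LMS-1, or 139 CPM, and 2348 counts in SK-UT-1, or 292 CPM. It was 2.10-fold lower in SK-LMS-1 (1.94 to 2.27), and the lower end of its interval did not reach 2-fold. The level per exon length put FOSL1 at 250 TPM (length-corrected counts scaled to sum to 1000000) in SK-LMS-1 and 70.0 TPM in SK-UT-1, and FOSL2 at 96.9 and 227 TPM. In SK-LMS-1, FOSL1 lay above 96.5% of the genes detected in that library and FOSL2 above 87.6%. In SK-UT-1, FOSL1 lay above 81.7% and FOSL2 above 95.7%.

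Within a library, the ratio of these genes does not depend on how the libraries were scaled. Per kilobase of exon, FOSL1 stood at 2.58 times the level of FOSL2 in SK-LMS-1 (2.36 to 2.82) and at 0.308 times in SK-UT-1 (0.273 to 0.347). The ratio differed between the libraries by 8.36-fold (7.20 to 9.72), a value that depends on neither scaling nor gene length. This pair was chosen after the values were seen. FOSL1 held 71.5% of the summed TPM of the FOS family in SK-LMS-1, against 23.3% in SK-UT-1, and FOSL2 held 27.7% and 75.4%. The sum itself was similar, at 350 TPM in SK-LMS-1 and 301 TPM in SK-UT-1.

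FOS and FOSB, the classical transient members of the family, were close to the detection limit. FOS had 8 counts in SK-LMS-1, or 1.22 CPM, and 19 counts in SK-UT-1, or 2.36 CPM. The ratio of 0.517 (0.196 to 1.24) included 1, so a difference in FOS was not detectable at this depth. FOSB had 12 counts in SK-LMS-1, or 1.83 CPM, and 6 counts in SK-UT-1, or 0.745 CPM. Its ratio of 2.46 (0.853 to 7.98) passed the 2-fold size but its interval also included 1. Together FOS and FOSB made up less of the family than either FOSL gene, with FOS at 0.450% of its TPM in SK-LMS-1, against 1.13% in SK-UT-1, and FOSB at 0.386% and 0.204%. Per kilobase, FOSL1 stood at 159 times the level of FOS in SK-LMS-1 (80.2 to 368) and at 20.6 times in SK-UT-1 (13.0 to 34.7), while FOSL2 stood at 61.5 times (31.1 to 143) and 66.8 times (42.7 to 111).

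The JUN family kept 1 order in both lines, with JUN above JUND and JUND above JUNB per length. JUN, the strongest activator among the JUN proteins, had 1438 counts in SK-LMS-1, or 219 CPM, and 1158 counts in SK-UT-1, or 144 CPM. The SK-LMS-1 level was 1.53 times that of SK-UT-1 (1.41 to 1.65), within 2-fold but with an interval that excluded 1. JUND, which is expressed in resting cells and responds little to serum, had 469 counts in SK-LMS-1, or 71.6 CPM, and 205 counts in SK-UT-1, or 25.5 CPM. The SK-LMS-1 level was 2.81 times that of SK-UT-1 (2.38 to 3.33). JUNB, which can restrain the activity of JUN, had 111 counts in SK-LMS-1, or 16.9 CPM, and 97 counts in SK-UT-1, or 12.1 CPM. Its ratio was 1.41 (1.06 to 1.87), and with library totals or the upper quartile as the scale the interval included 1.

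JUND took a larger part of the JUN family in SK-LMS-1. It stood at 0.552 times the level of JUN per kilobase in SK-LMS-1 (0.496 to 0.613) and at 0.300 times in SK-UT-1 (0.257 to 0.348), a 1.84-fold difference between the libraries (1.53 to 2.22). JUNB stood at 0.141 times the level of JUN in SK-LMS-1 (0.115 to 0.171) and 0.153 times in SK-UT-1 (0.123 to 0.189), and the ratio of these values, 0.922, had an interval that included 1 (0.687 to 1.24). The summed TPM of the JUN family was 311 in SK-LMS-1, against 195 in SK-UT-1. The FOS family sum was 1.12 times the JUN family sum in SK-LMS-1 and 1.54 times in SK-UT-1. FOSL1 alone stood at 1.36 times the level of JUN per kilobase in SK-LMS-1 (1.25 to 1.47) and at 0.521 times in SK-UT-1 (0.458 to 0.590), whereas FOSL2 stood at 0.527 times (0.484 to 0.573) and 1.69 times (1.57 to 1.81). Without the length correction FOSL1 stood at 0.717 times JUN in SK-LMS-1, so their order in that library turns with it.

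**Figure D3:**
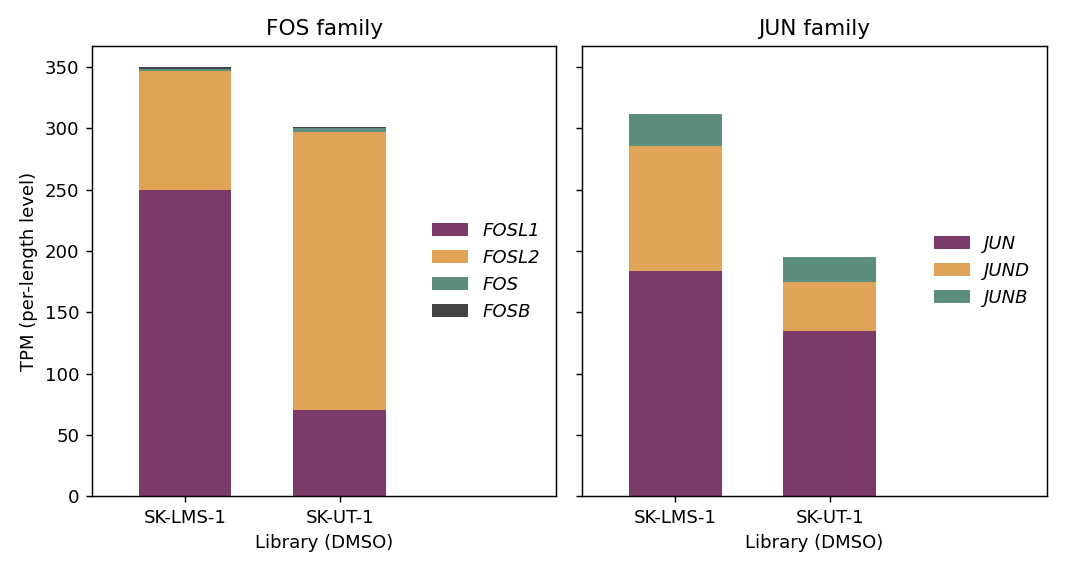
Summed per-length level in TPM of the FOS family (left) and the JUN family (right) in the SK-LMS-1 and SK-UT-1 libraries, with each gene as a coloured segment. FOSL1 forms the largest FOS family segment in SK-LMS-1 (250 TPM) and FOSL2 in SK-UT-1 (227 TPM), while JUN is the largest JUN family segment in both.

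The other immediate early genes differed among themselves. EGR1, a zinc finger factor driven by SRF, had 109 counts in SK-LMS-1, or 16.6 CPM, and 40 counts in SK-UT-1, or 4.97 CPM. The SK-LMS-1 level was 3.35 times that of SK-UT-1 (2.31 to 4.94) and stayed below the middle of the detected genes per length, above 48.4% of them in SK-LMS-1, against 32.6% in SK-UT-1. IER3, a stress-induced regulator of cell survival, had 847 counts in SK-LMS-1, or 129 CPM, and 243 counts in SK-UT-1, or 30.2 CPM. The ratio was 4.28 (3.71 to 4.96), the largest of the 10. ATF3, a basic leucine zipper factor induced by stress that pairs with JUN proteins, had 20 counts in SK-LMS-1, or 3.05 CPM, and 32 counts in SK-UT-1, or 3.98 CPM. Its ratio of 0.768 (0.416 to 1.38) included 1, so no difference in ATF3 was detectable at this depth.

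IER3 needs a caution of its own. The table lists it on 6 sequences, chromosome 6 and alternative versions of that region, and its exon length of 7440 bases adds them up, where chromosome 6 alone has 1240. The counting command gives no option for fragments that align to several of these copies. The count of IER3 is therefore uncertain and may miss such fragments. With the length on chromosome 6, chosen after the values were seen, IER3 stood at 283 TPM in SK-LMS-1 and 73.4 TPM in SK-UT-1, against 48.4 and 12.6 TPM with the listed length. The other 9 genes lie on 1 sequence each, and no exon of the 10 genes overlaps another gene on its strand.

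Most of the 10 genes are compact. Their median span from first to last exon was 3640.5 bases with a median of 3 exons, against 27786 bases and 9 exons over measured genes, and 8 of the 10 spanned less than 10 kb, as 24.3% of measured genes did. The exceptions were FOSL2, which spanned 21738 bases, and ATF3, which spanned 55444 bases over 6 exons. JUN, JUNB and JUND each have 1 exon. In hg38, FOSL1 lies at chr11:65892136-65900526 (minus strand) and FOSL2 at chr2:28392912-28414649 (plus strand). JUN lies at chr1:58780791-58784113 and JUND at chr19:18279694-18281656, both on the minus strand. EGR1 lies at chr5:138465492-138469315 (plus strand) and IER3 at chr6:30743199-30744550 (minus strand).

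The genes next to these members had median ratios near 0 on the log2 scale, apart from those around FOS and ATF3. Among the 10 nearest measured genes on each side, the median log2 ratio was 0.02 around FOSL1, with 2 of 20 neighbours higher by 2-fold or more in SK-LMS-1 and 3 of 20 in SK-UT-1. It was 0.35 around FOS, 0.01 around FOSL2, 0.20 around JUND, -0.20 around EGR1 and 0.20 around IER3. The neighbours of ATF3 leaned furthest to 1 side among the 10 sets, with a median of -0.83 and 8 of 20 higher by 2-fold or more in SK-UT-1, beside a log2 ratio of -0.38 for ATF3 itself.

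Other immediate early genes also differed in both directions. Of 29 measured genes in this list, 12 were higher by 2-fold or more in SK-LMS-1, 4 were so in SK-UT-1 and 13 differed by less, giving a median log2 ratio of 0.55. These shares were 41.4% and 13.8%, against 21.9% and 18.3% of all measured genes. The growth factor gene HBEGF stood at 39.7 CPM in SK-LMS-1, against 2.36 CPM in SK-UT-1, a ratio of 16.8 (10.5 to 28.4). CTGF and CYR61, now called CCN2 and CCN1 and encoding matrix-associated signalling proteins, had ratios of 12.9 (10.8 to 15.6) and 11.7 (10.6 to 12.9). In the other direction, the antiproliferative gene BTG2 had 3 counts in SK-LMS-1, against 146 in SK-UT-1, 39.6-fold lower in SK-LMS-1 (13.3 to 194). IER5L was 6.65-fold lower in SK-LMS-1 (4.34 to 10.6), and JMJD6, a hydroxylase, 2.12-fold lower (1.62 to 2.80).

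Among other basic leucine zipper genes, 3 of 16 measured were higher by 2-fold or more in SK-LMS-1, 1 was so in SK-UT-1 and 12 differed by less, giving a median of 0.04. As shares these were 18.8% and 6.25%, beside 21.9% and 18.3% of all measured genes. The small MAF genes MAFK and MAFF, whose proteins lack an activation domain, had ratios of 4.65 (3.70 to 5.90) and 4.29 (3.06 to 6.11). CREM, a cAMP-responsive factor, had a ratio of 2.77 (2.04 to 3.80).

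A further list held 14 measured transcription factor genes that act on immediate early genes, called inducing factors. Of these 14, 2 were higher by 2-fold or more in SK-LMS-1, 0 were so in SK-UT-1 and 12 differed by less. Their median was -0.12, and the shares were 14.3% and 0%, against 21.9% and 18.3% of all measured genes. SRF itself stood at 76.9 CPM in SK-LMS-1, against 93.2 CPM in SK-UT-1, a ratio of 0.825 (0.736 to 0.925). Its partner ELK3, a ternary complex factor, stood at 220 and 52.6 CPM, a ratio of 4.18 (3.75 to 4.67). Among MAP kinases and their kinases, 5 of 22 were higher by 2-fold or more in SK-LMS-1, 3 were so in SK-UT-1 and 14 differed by less, giving a median of 0.10. For these kinases the shares were 22.7% and 13.6%, against the same 21.9% and 18.3% of all measured genes. The ribosomal S6 kinase genes RPS6KA2 and RPS6KA1, which act downstream of ERK, went opposite ways. RPS6KA2 stood at 92.2 CPM in SK-LMS-1, against 5.22 CPM in SK-UT-1, a ratio of 17.7 (12.9 to 24.8). RPS6KA1 stood at 14.7 CPM in SK-LMS-1, against 48.1 CPM in SK-UT-1, and was 3.28-fold lower in SK-LMS-1 (2.62 to 4.15). The p38 kinase genes MAPK11 and MAPK13 had ratios of 5.22 (2.37 to 13.1) and 5.19 (2.46 to 12.2) from low levels.

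Of 10 genes for regulators of the JUN, FOS and EGR1 proteins, 1 was higher by 2-fold or more in SK-LMS-1, 2 were so in SK-UT-1 and 7 differed by less, giving a median of -0.20. As shares these were 10% and 20%, beside 21.9% and 18.3% of all measured genes. NAB1 and NAB2 encode corepressors of EGR1 and went opposite ways. NAB1 stood at 51.0 CPM in SK-LMS-1, against 5.84 CPM in SK-UT-1, a ratio of 8.73 (6.42 to 12.1). NAB2 stood at 15.7 and 41.7 CPM, 2.66-fold lower in SK-LMS-1 (2.12 to 3.34). SFN, which encodes the adaptor protein stratifin, was 5.39-fold lower in SK-LMS-1 (2.55 to 13.1).

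Known target genes of AP-1 were mostly higher in SK-LMS-1. Of the 21 target genes that were measured, 17 were higher by 2-fold or more in SK-LMS-1, 1 was so in SK-UT-1 and 3 differed by less, giving a median log2 ratio of 2.30. The shares were 81.0% and 4.76%, against 21.9% and 18.3% of all measured genes. Of the measured targets, 5 had 0 counts in SK-UT-1 and entered at the floor. MMP9, IL6 and SPP1, listed but not measured, also had 0 counts in SK-UT-1. Of the 21, 14 reached 1 CPM in both libraries, with 10 of them higher by 2-fold or more in SK-LMS-1, 1 so in SK-UT-1 and a median of 1.99. Of all genes at 1 CPM in both libraries, 15.3% and 13.0% passed this size. The list was written with earlier results of these libraries known and is no independent evidence of its direction. The collagenase gene MMP1 stood at 525 CPM and the stromelysin gene MMP3 at 304 CPM in SK-LMS-1, and both had 0 counts in SK-UT-1. Taking 3 counts as the floor of that library, the ratio came to 1408 for MMP1 and 816 for MMP3. The exact intervals, which allow for more than 3 counts, began lower, at 1145 for MMP1 and 663 for MMP3. HMOX1, which encodes haem oxygenase, was the 1 gene in the other direction, 2.73-fold lower in SK-LMS-1 (2.10 to 3.60).

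The RefSeq table held windows for 15 of the 24 target genes, and 6 of them held a TPA response element. The list was chosen as targets of AP-1, so this count is a description and nothing is read from it. MMP10, PLAUR, CXCL8 and IL11 each held an element and were higher by 2-fold or more in SK-LMS-1. MT2A held an element and had a ratio of 1.13 (0.959 to 1.34). PLAU, CD44, PTGS2, HMGA1 and AXL held none in their windows and were also higher by 2-fold or more in SK-LMS-1. TIMP1 and TGFB1 held none and differed by less. Whether the element goes with the level was not tested. The window of F3, the gene for tissue factor, is shown because it held a pair of such elements, starting at bases -223 and -210, and because F3 stood at 136 CPM in SK-LMS-1, against 4.85 CPM in SK-UT-1, a ratio of 28.1 (20.4 to 39.7). It lies at chr1:94541710-94542009 on the minus strand in GRCh38.p14, written 5′ to 3′ of the gene with both elements in capitals.
F3: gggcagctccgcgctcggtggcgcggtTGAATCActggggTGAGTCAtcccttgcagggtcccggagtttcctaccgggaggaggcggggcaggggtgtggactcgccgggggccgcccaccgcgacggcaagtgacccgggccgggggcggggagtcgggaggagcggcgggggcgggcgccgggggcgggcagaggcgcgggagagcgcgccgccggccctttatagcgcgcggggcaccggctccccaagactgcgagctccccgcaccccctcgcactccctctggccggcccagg

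Stress genes showed no common direction. Of 12 genes of the ATF4 stress response, which includes ATF3 as a target, 1 was higher by 2-fold or more in SK-LMS-1, 2 were so in SK-UT-1 and 9 differed by less, giving a median of -0.07. As shares these were 8.33% and 16.7%, beside 21.9% and 18.3% of all measured genes. DDIT4, an inhibitor of mTOR signalling, was 7.33-fold lower in SK-LMS-1 (5.30 to 10.4) and the pseudokinase gene TRIB3 2.14-fold lower (1.47 to 3.16). PPP1R15A, a phosphatase subunit that reverses the translation block and is itself an immediate early gene, had a ratio of 2.13 (1.90 to 2.38). Heat shock genes were read here as a sign of handling. Of 8 such genes, 3 were higher by 2-fold or more in SK-LMS-1, 1 was so in SK-UT-1 and 4 differed by less. Their median was 0.24, and the shares were 37.5% and 12.5%, against 21.9% and 18.3% of all measured genes. HSPA1A stood at 9.61 CPM in SK-LMS-1, against 0.248 CPM in SK-UT-1, a ratio of 38.7 (10.3 to 326) from 2 counts in SK-UT-1. HSPA1B stood at 13.3 and 1.12 CPM, a ratio of 11.9 (5.98 to 26.8). Both genes are listed on several sequences and thus uncertain. The cochaperone gene BAG3 had a ratio of 2.34 (2.03 to 2.70) and the mitochondrial chaperonin gene HSPD1 a ratio of 0.481 (0.462 to 0.501). The other 4 had smaller ratios in both directions, at 0.565 for DNAJB1 (0.502 to 0.634), 0.749 for HSPB1 (0.647 to 0.866), 1.14 for HSPH1 (1.06 to 1.22) and 1.23 for HSPA8 (1.21 to 1.26). The part of handling in the differences between the lines was not tested.

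**Figure D4:**
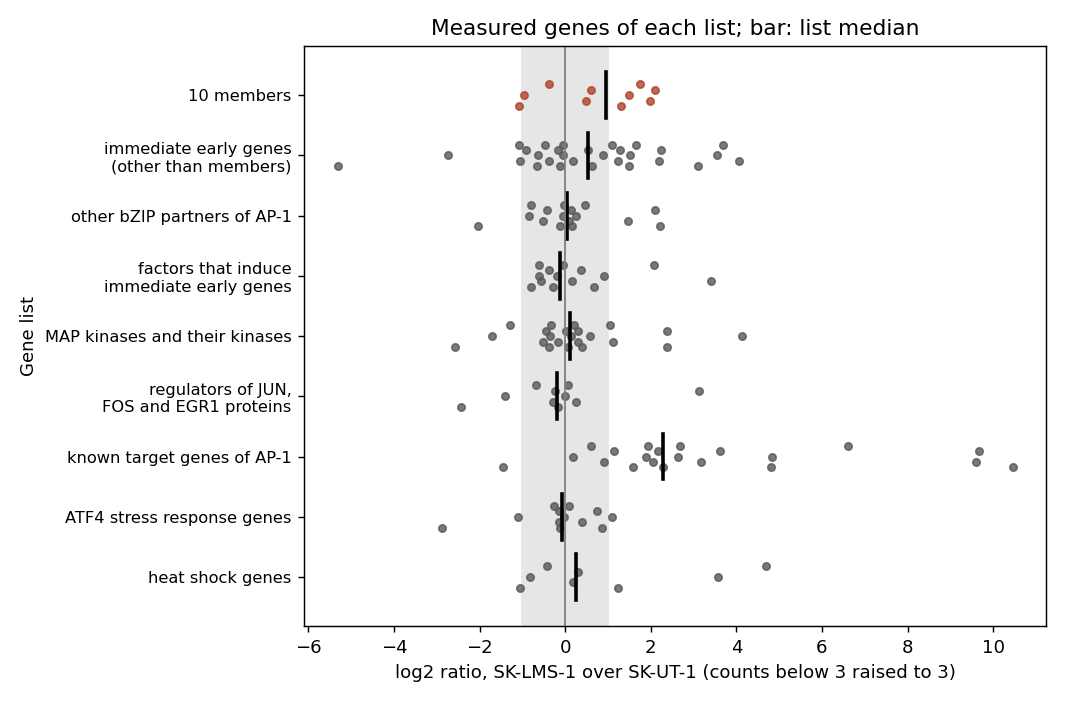
Log2 ratio, SK-LMS-1 over SK-UT-1, of each measured gene in the 10-gene set (red) and in each list (grey), with black bars at the medians and a grey band for ratios within 2-fold. The AP-1 target genes have a median of 2.30, against 0.95 for the 10 genes and between -0.20 and 0.55 for the other lists.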

How the data were processed

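Total RNA of 2 cell lines, 1 library each, was prepared with a stranded SMARTer kit, per the labels' protocols. The deposited table holds raw counts of fragments per gene, which the authors made with featureCounts 2.0.1 over exons of a UCSC hg38 annotation with strand setting 1, per the file headers. The command counts a fragment for each gene it overlaps and gives no option for fragments aligning to several places. The sources used here name no aligner. A further 2 count columns match neither sample and were not used.

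Counts were scaled with edgeR 4.0.16 TMM in R 4.3.3. TPM was computed from the counts and the table's exon length. Ratios have exact 95% conditional binomial intervals. Their computation was checked on simulated Poisson counts, which meet the assumption of the intervals by design. That check therefore says nothing on amplification or on variation between cultures. The intervals cover counting error only. Amplified reads are not independent molecules, so the intervals may be too narrow even for that. Counts below 3 were raised to 3 for calls and medians. From each list, up to 3 genes per direction were named, those with the greatest ratio of 2 or more whose higher library reached 5 CPM, and the most abundant gene of each marker list. 1 gene that this rule names is not reported here. SRF, F3 and the target genes named beside its window were chosen after their values were seen. So were 4 heat shock genes within 2-fold and the remaining markers printed. The members and lists were chosen with earlier results of these data known. Results were recomputed with upper quartile scaling, library totals or size factors from DESeq2 1.42.0, and with other filters, size rules, floors, lengths and thinning.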

Additional observations from a re-analysis of the deposited data

How the results depend on the processing

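No paired analysis was possible because each line has 1 library, which also leaves no library to leave out. All 10 members kept the direction of their ratio under every scaling, with thinning of the deeper library and with a floor of 1 count. Library totals and the upper quartile moved the median log2 ratio of all measured genes to -0.15 and -0.14, from 0.01. Relative to TMM they moved FOS past 2-fold (log2 ratio -1.10 and -1.09), so that 2 members passed it towards SK-UT-1, and took FOSL2 to -1.22 and -1.20 and JUN to 0.46 and 0.48. Under both, 3 MAP kinase genes and 0 ATF4 stress genes were higher in SK-LMS-1. Depth limits FOS, FOSB and ATF3, whose intervals include equality.

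A 4-fold rule left 1 member higher in SK-LMS-1 against 0 in SK-UT-1, and 1639 and 1046 of the 14324 measured genes. In the same order it left 6 and 2 other immediate early genes, 3 and 1 MAP kinase genes and 0 and 1 ATF4 stress genes, and in SK-UT-1 1 regulator, 0 AP-1 targets and 0 heat shock genes. A 1.5-fold rule gave 6 members and 4405 of the 14324 genes higher in SK-LMS-1, against 2 members and 4053 genes in SK-UT-1. SK-UT-1 then had 7 immediate early genes, 3 other basic leucine zipper genes, 3 inducing factors and 2 heat shock genes. SK-LMS-1 had 4 inducing factors and 3 ATF4 stress genes. Requiring the whole interval beyond 2-fold left 4 members and 2167 of the 14324 genes higher in SK-LMS-1, against 0 members and 1447 genes in SK-UT-1. SK-UT-1 then had 2 immediate early genes, 1 ATF4 stress gene and 0 heat shock genes. SK-LMS-1 had 3 MAP kinase genes and 0 ATF4 stress genes. A limit of 5 CPM left 11784 measured genes. Of these, 2319 were higher in SK-LMS-1, with 4 members and 1 inducing factor. In SK-UT-1 1720 were higher, with 1 member, 0 other basic leucine zipper genes and 1 MAP kinase gene.

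Without correction for length, FOSL1 stood at 1.13 times FOSL2 in SK-LMS-1 and 0.135 times in SK-UT-1, so the order held. JUND stood at 0.326 and 0.177 times JUN, JUNB at 0.0772 and 0.0838 times, FOSL1 at 0.717 and 0.275 times, and FOSL2 at 0.633 and 2.03 times. FOSL1 then lay below JUN in SK-LMS-1. FOSL2 stood at 124 times FOS in SK-UT-1.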
